A study of Mus musculus and Homo sapiens with 23 samples.

Results

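The cytosolic ribosomal protein genes were examined in RNA of BV2 cells, a microglial line of the mouse that divides in culture without limit. Microglia are the macrophages of the brain. Members were the genes whose RefSeq symbol follows the Rpl or Rps naming scheme, which gave 85 of the 21588 genes in the tables, with the values of a gene's transcript rows summed. Of these, 77 were core genes (46 of the large subunit and 31 of the small subunit) and 8 were copies of a core gene, such as Rpl3l and Rps27l. The symbol rule leaves out some ribosomal protein genes with other names, such as Fau, which encodes S30, Rpl36al and Rack1. One library was made after 3 h of stimulation with LPS (lipopolysaccharide), a cell wall component of Gram-negative bacteria that Toll-like receptor 4 detects. The other was made from unstimulated BV2 cells. No genotype or further treatment is named for either, and a line is a model of microglia that grows in culture without other brain cells. The series holds 23 samples in all, and the other 21 are chromatin samples of 4 sources (GM12878, a human line, mouse embryonic stem cells, mouse forebrain and BV2), which were not analysed here. With 1 library a group there is no replicate check and no p-value, and each difference is one between these libraries.

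A ribosome is built from a large subunit, which joins amino acids and holds the exit tunnel for the new protein, and a small subunit, which holds the mRNA and decodes it. Most ribosomal proteins are present once per ribosome, so the genes are read at high and matched rates in growing cells, and their mRNAs start with a run of pyrimidines, the TOP motif, through which the kinase mTOR and the protein Larp1 set their translation. In macrophages, Toll-like receptor signals act on translation as well as on transcription, and several ribosomal proteins have roles apart from the ribosome.

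Sequence at the transcription start was read for the members because the TOP motif lies there and bears on how these mRNAs are used. Of the 85 members, 64 had a promoter entry in the RefSeq table of build GRCm38.p6, 57 of them core genes. The first windows below carry a pyrimidine run and the last ones do not. Each runs from 10 bases before the annotated start to 20 bases from it on, so 30 bases, 5′ to 3′ on the gene's strand. Capitals mark a run of 5 or more pyrimidines, and in Rpl26 they mark the letters CCGGAAG, a form of the site that Ets family factors bind.
Rpl13a, chr7:45128726-45128755, minus strand: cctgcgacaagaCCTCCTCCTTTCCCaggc
Rpl35, chr2:39005112-39005141, minus strand: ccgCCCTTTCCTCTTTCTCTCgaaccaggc
Rplp2, chr7:141447641-141447670, plus strand: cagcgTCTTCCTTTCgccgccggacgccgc
Rps26, chr10:128626487-128626516, minus strand: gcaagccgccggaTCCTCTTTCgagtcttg
Rps24, chr14:24490668-24490697, plus strand: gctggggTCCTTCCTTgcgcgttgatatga
Rpl15, chr14:18270967-18270996, minus strand: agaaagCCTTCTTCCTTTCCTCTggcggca
Rpl7a, chr2:26910797-26910826, plus strand: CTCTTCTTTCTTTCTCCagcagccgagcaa
Rpl23, chr11:97782420-97782449, minus strand: gtccggtcacgtggctgagtgggcggggcc
Rps15, chr10:80292421-80292450, plus strand: cagagctcgcgataactgcgcaagcgcagc
Rpl26, chr11:68901556-68901585, plus strand: ggcaacttacagaaCCGGAAGtcgcgtgta

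The letters CTTTC on the sense strand stood in the start window of 14 of the 57 core genes (24.6%), of 1.45% of the mitochondrial ribosomal protein genes and of 4.43% of the 27025 genes in the table. Their antisense form, GAAAG, stood there in 3 core genes (5.26%) and in 4.31% of all genes. A pyrimidine start, meaning a C within 5 bases of the annotated start followed by 4 or more pyrimidines, was present in 27 core genes (47.4%), against 24.6% of the mitochondrial ribosomal protein genes and 21.2% of all genes. Letters such as CTTTC are themselves pyrimidines and fall inside such runs. The count of pyrimidine starts depends on where the start is annotated, and a gene not counted can hold a run further on. In the whole 300-base promoter entry, on both strands, CCGGAAG was found in 24 core genes (42.1%), 37.7% of the mitochondrial ribosomal protein genes and 9.93% of all genes. GGGCGG, the GC box, was found in 61.4% of core genes, 49.3% of the mitochondrial ribosomal protein genes and 38.2% of all genes. AAGATGGC, part of the YY1 site, was found in 8.77%, 17.4% and 3.19% of these, and TATAAA, the TATA box, in 10.5%, 7.25% and 15.7%. A match is a description of these letters and not a site shown to act.

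Ribosomal protein mRNAs were among the most abundant transcripts of BV2 cells with and without LPS. FPKM, the deposited unit, counts fragments per kilobase of transcript, scaled to the size of the library, so levels can be set side by side between genes. Members filled 34 of the 100 highest places in the LPS library and 35 in the unstimulated library. Their FPKM summed to 117949 in the LPS library and 110185 in the unstimulated library, which was 18.0% and 19.9% of the summed FPKM of the counted genes. The share was smaller with LPS while the sum was larger, because the summed FPKM of all counted genes was 655204 in the LPS library and 552423 in the unstimulated library. A gene was counted where it reached 1 FPKM in either library, which 10032 genes did. Of the members, 81 did, among them all 77 core genes.

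Large subunit genes summed to 66880 FPKM in the LPS library and 61000 FPKM in the unstimulated library, and small subunit genes to 51069 and 49185 FPKM. The typical small subunit gene stood higher than the typical large subunit gene in both libraries. The median level of the core small subunit genes was 1153 FPKM with LPS and 939 FPKM without, and that of the core large subunit genes was 504 FPKM with LPS and 496 FPKM without. Over all counted members the ratio of the medians, large over small, was 0.404 in the LPS library and 0.387 in the unstimulated library. Without Rplp1, the large subunit summed to 49697 FPKM with LPS and 48101 FPKM without, just under the small subunit.

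**Figure D1:**
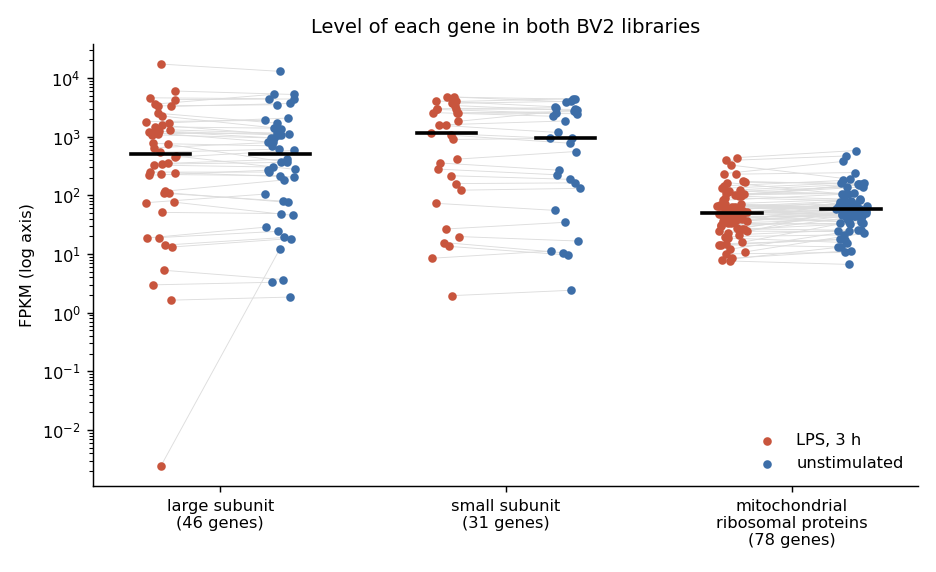
FPKM (log axis) of each core gene of the large subunit, each core gene of the small subunit and each counted mitochondrial ribosomal protein gene, with the LPS library in red on the left, the unstimulated library in blue on the right, a line joining the same gene and a black bar at the median. Cytosolic genes spread over several powers of 10 in both libraries, mitochondrial ones between 7.56 and 437 FPKM with LPS and between 6.61 and 578 FPKM without, and Rpl26 is the gene whose line drops at the left.

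Levels within a subunit were far from equal, although most of the proteins are used in equal number. Among the 46 core large subunit genes, 9 in the LPS library and 13 in the unstimulated library lay within 2-fold of the subunit's median, and among the 31 core small subunit genes it was 6 in either library. The coefficient of variation was 190% with LPS and 171% without for the large subunit, and 97.3% and 96.8% for the small subunit. In the unstimulated library the highest core small subunit gene stood 1850-fold above the lowest. The interquartile range of core levels was 4.50 log2 units with LPS and 4.39 without, while that of the mitochondrial ribosomal proteins, which also form a complex of fixed makeup, was 1.60 with LPS and 1.13 without. The 10 highest core genes held 48.3% of the summed core FPKM in the LPS library and 48.0% in the unstimulated library. The order of the core genes was nearly the same in both libraries, with a Spearman correlation of levels of 0.991 over 77 genes, which share each library's depth and mapping.

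Rplp1, an acidic protein of the stalk that recruits the elongation factors, had the highest FPKM of all genes in both libraries. It stood at 17183 FPKM (17077 to 17289) with LPS and 12899 FPKM (12805 to 12994) without, where the bounds are those deposited for that library. They are read here as 95% intervals, the usual setting of Cufflinks, since no source states their level. Its locus is 9:61761090-61762317 in build mm9. By the mean of both libraries, the next large subunit genes were Rpl32, Rpl13a, Rpl39, Rpl23 and Rpl35. Rpl32 had 5968 FPKM with LPS and 5210 FPKM without, and Rpl39, a very short protein of the exit tunnel, had 4254 and 4370 FPKM. Rpl13a, which in human monocytes also carries the GAIT complex that silences translation of inflammatory mRNAs, had 4573 FPKM with LPS and 4416 FPKM without. The small subunit had no gene that stood so far apart. Among its highest were Rps26, Rps15, Rps20, Rps7 and Rps14, with 3368 to 4769 FPKM in the LPS library and 2763 to 4431 FPKM in the unstimulated library. Of the proteins made outside the symbol rule, Rack1, a scaffold on the head of the small subunit, had 5439 FPKM with LPS and 4131 FPKM without, and Fau had 2401 and 2307 FPKM.

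At the other end, several core genes that every ribosome needs were listed at very low levels. Of the core genes, 18 in the LPS library and 19 in the unstimulated library were under 100 FPKM, and 14 and 13 were under 30 FPKM. Rps6, the substrate of the S6 kinases, had 19.7 FPKM (18.04 to 21.44) with LPS and 16.6 FPKM (15.0 to 18.2) without. Rps23, at the decoding centre, had 1.94 FPKM (0.61 to 3.27) with LPS and 2.39 FPKM (0.88 to 3.91) without. In the large subunit, Rpl21 had 2.96 FPKM with LPS and 3.28 FPKM without, and Rpl7a had 5.25 and 3.66 FPKM. Rps12 and Rps2 lay between 8.42 and 13.4 FPKM with LPS and between 9.56 and 11.2 FPKM without. Genes this low in one library were low in the other, Rpl26 among them. Rpl26 had 12.3 FPKM without LPS and 0.00244 FPKM with it.

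These low levels went with the number of pseudogene entries named after a gene. Ribosomal protein genes have many pseudogenes of nearly the same sequence, which can take or share a gene's fragments. The sources used here do not say how the authors treated fragments with several matches. The RefSeq name table holds 320 pseudogene entries named after a member, and copies listed under other names were not counted. The 15 core genes with none had a median of 2522 FPKM with LPS and 2216 FPKM without. The 38 genes with 1 to 4 had 1269 and 1097 FPKM, the 12 genes with 5 to 9 had 98.3 and 118 FPKM, and the 12 genes with 10 to 24 had 68.0 and 93.3 FPKM. The Spearman correlation of the number of named pseudogenes with the level was -0.643 over 77 genes. Exceptions ran both ways, since Rpl19 with 12 named pseudogenes had 1071 FPKM with LPS and 947 FPKM without, and Rps23 has 2. The part of pseudogenes in the low levels was not tested, so levels of genes with several copies are uncertain and the spread above is that of the deposited values. Row status also bears on 2 genes. An Rpl38 transcript marked as having too little data, and not used, was listed at 1509 FPKM with LPS and 1664 FPKM without, against 14.1 and 19.0 FPKM for the sum of the 2 Rpl38 transcripts used. Likewise an unused Rpl34 row held 364 FPKM with LPS and 427 FPKM without, against 76.3 and 45.3 FPKM. Including such rows, the change of Rpl34 is -0.10, against 0.74 without them.

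**Figure D2:**
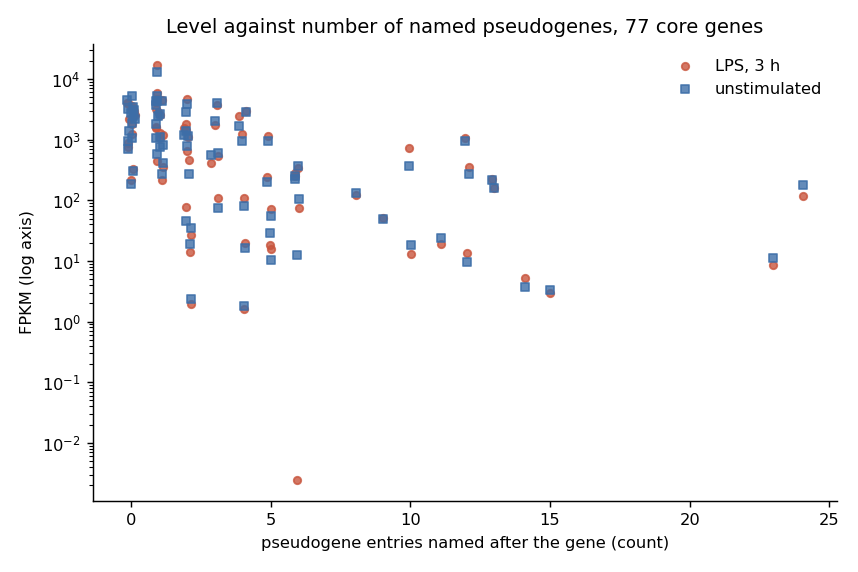
FPKM (log axis) of the 77 core genes against the number of pseudogene entries named after each, with red circles for the LPS library and blue squares for the unstimulated library. Genes without a named pseudogene lie between 215 and 4052 FPKM with LPS and between 186 and 5253 FPKM without, and the lowest values lie among genes with named pseudogenes.

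After 3 h of LPS the ribosomal protein genes as a group moved little, while known LPS targets rose by far more. All 7 LPS response genes used as a check passed the size rule, among them Tnf with 735 FPKM with LPS and 11.49 FPKM without, and Cxcl10 with 2666 and 1.43 FPKM. Change is the difference of log2(FPKM + 1), LPS minus unstimulated, and a gene was called where it reached 1, a fold of 2 on this scale, which understates the change of genes of low FPKM. By this rule 1 member rose, Rpl36, and 1 fell, Rpl26, against 8.54% of all counted genes called higher and 12.4% called lower. The median change was 0.04 over the 81 counted members and -0.24 over all counted genes, with 42 members above 0 and 39 below. On a rescaling of each library to the same sum (TPM) the members' median was -0.20 and on quantile normalisation -0.13, with 25 above 0 under either, so the direction of the group depends on the scaling. With the median of all counted genes set to 0 it was 0.28. Of the 81 members, 40 had 1 sign under all 4 scalings, 21 of them above 0 and 19 below. Rplp1, above 0 under the other scalings, is left out of these because quantile normalisation sets a gene of equal rank in both libraries to 0. Changes stayed within 0.5 log2 units for 65 of the 81 members (80.2%) and for 49.9% of all counted genes. Other genes of high abundance were closer to the members. Of 644 genes outside the members with 100 FPKM or more in both libraries, 72.7% stayed within 0.5 with a median of 0.06, and of the 57 core members at that level it was 84.2% with a median of 0.06.

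The subunits had medians close to each other. The large subunit had a median change of -0.00097 (quartiles -0.29 and 0.25) and 36 of its 49 counted genes within 0.5. The small subunit had a median of 0.08 (quartiles -0.12 and 0.30) and 29 of its 32 counted genes within 0.5. Among core genes only, the medians were 0.02 and 0.11, and both were below 0 on the TPM scale (-0.22 and -0.13) and after quantile normalisation (-0.16 and -0.02). A change of 1.5-fold was reached upward by 4 members (Rpl36, Rpl3, Rpl34 and Rpl8), against 13.8% of all counted genes, and downward by 6 (Rpl26, Rpl3l, Rps24, Rpl31, Rps27l and Rpl15), against 29.7%. Depth was high for most of these genes, with intervals of 2.09% of the value to either side in the LPS library and 2.35% in the unstimulated library as the median over counted members. The intervals of the libraries were therefore separate for 36 members with the higher value in LPS, against 25.1% of counted genes, and for 27 members with the lower value, against 48.5%. Separate intervals cover counting error within a library and say nothing of the spread between cultures.

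**Figure D3:**
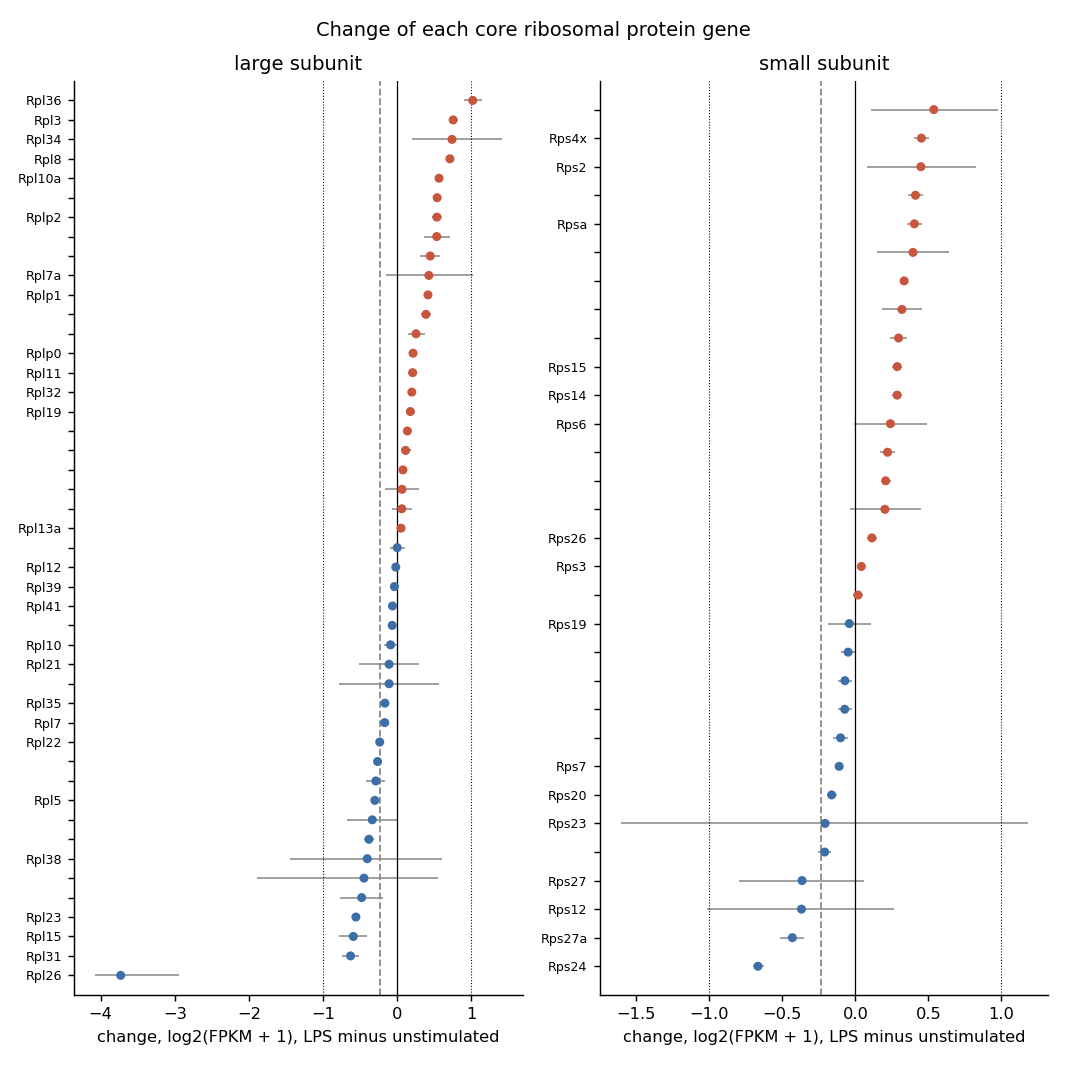
Change of each core gene in log2(FPKM + 1), LPS minus unstimulated, for the large subunit on the left and the small subunit on the right, whose horizontal axes differ in range. Points run in order of change, those described in the text carry their names, red points are above 0 and blue points below, grey bars span the change computed from the deposited bounds, dotted lines mark the size rule at -1 and 1 and the dashed line the median of all counted genes at -0.24. Rpl36 and Rpl26 are past the dotted lines, and all small subunit genes lie between them.

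Rpl36, a small protein of the large subunit, had 736 FPKM (711 to 761) with LPS and 363 FPKM (345 to 381) without, a ratio of 2.03 (1.91 to 2.15) and a change of 1.02. It lies just past the size rule and was no longer called on the TPM scale (0.77) or after quantile normalisation (0.72). Its locus is 17:56752818-56753669 in mm9, and it has 10 named pseudogenes. Rpl26, a protein at the rim of the exit tunnel that in human cells also binds the p53 mRNA, had 0.00244 FPKM (0 to 0.258) with LPS and 12.3 FPKM (8.70 to 15.9) without, a change of -3.73. The LPS value stands for less than 1 fragment, and no ratio is given. Its locus is 11:68715068-68718036 in mm9 and it has 6 named pseudogenes, so a different sharing of fragments among copies in each library was not tested. No other core gene dropped to such a level.

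Within the large subunit, most of the members assigned to the catalytic centre and the stalk stood higher with LPS on the deposited scale. Rpl3, Rpl8 and Rplp2 kept this sign under the 4 scalings, while Rplp0 turned below 0 on the TPM scale (-0.03) and after quantile normalisation (-0.04). Rplp1 stayed above 0 on the TPM scale (0.17). Quantile normalisation sets its change to 0 whatever its FPKM, because it ranks first in both libraries. Rpl3, which lines the entrance of the peptidyl transferase centre, had 466 FPKM (457 to 474) with LPS and 276 FPKM (269 to 282) without, a change of 0.75. Rpl8, beside the same centre, had 2232 FPKM (2207 to 2256) with LPS and 1364 FPKM (1345 to 1384) without, a change of 0.71. Rpl10, which completes the site late in assembly, had 340 FPKM with LPS and 362 FPKM without, and its change of -0.09 has the other sign. Rpl10a, a protein of the L1 stalk at the exit site, had 2495 FPKM (2469 to 2522) with LPS and 1689 FPKM (1667 to 1711) without, a change of 0.56 that stayed above 0 under the 4 scalings. The stalk proteins Rplp1, Rplp2 and Rplp0 changed by 0.41, 0.53 and 0.21, below the size rule. Rplp2 had 1551 FPKM (1517 to 1585) with LPS and 1071 FPKM (1042 to 1099) without, and Rplp0, the base that anchors the P proteins, had 1301 FPKM (1287 to 1315) with LPS and 1123 FPKM (1109 to 1136) without. Rpl12, at the stalk base, had 1125 FPKM with LPS and 1141 FPKM without, and its intervals overlapped. The Rplp1 level was 11.08 times that of Rplp2 with LPS and 12.05 times without, although the proteins form dimers in equal number.

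Rpl5 and Rpl11, which join the 5S RNA and can bind Mdm2 when ribosome assembly is disturbed, had changes of opposite sign on the deposited scale. Rpl5 had 643 FPKM (636 to 651) with LPS and 794 FPKM (785 to 803) without, a change of -0.30. Rpl11 had 1230 FPKM (1206 to 1253) with LPS and 1065 FPKM (1043 to 1087) without, a change of 0.21. Both changes are below the size rule, and that of Rpl11 was -0.04 on the TPM scale. Of the 8 proteins of the exit tunnel and its rim, 6 were below 0 and 2 above, against 8 below on the TPM scale and 3 below with the median of all genes set to 0. Rpl31 had 117 FPKM (112 to 122) with LPS and 182 FPKM (175 to 188) without, a change of -0.63, and it has 24 named pseudogenes, the most of any core gene. Rpl23, a conserved protein on the face that meets the small subunit, had 3567 FPKM (3540 to 3594) with LPS and 5253 FPKM (5220 to 5287) without, a change of -0.56, and no named pseudogene. Both were below 0 under the 4 scalings.

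In the small subunit no gene passed the size rule. Rps24, a protein of the body mutated in some patients with Diamond-Blackfan anaemia, had 1816 FPKM (1792 to 1846) with LPS and 2884 FPKM (2855 to 2913) without, the lowest change at -0.67. The other 5 genes assigned to the body were above 0 on the deposited scale and 4 of them on the TPM scale, among them Rps4x with 1053 FPKM (1036 to 1069) with LPS and 769 FPKM (755 to 784) without, a change of 0.45. The head, with 12 genes, had 6 above 0 and 6 below, and a median change of -0.01 (-0.26 on the TPM scale). At the mRNA entry, Rps3, which in human cells also binds NF-kB subunit RelA, had 2522 FPKM (2506 to 2538) with LPS and 2452 FPKM (2435 to 2468) without, a change of 0.04 that was -0.20 on the TPM scale. At the mRNA exit, Rpsa, known also as a laminin-binding protein, had 354 FPKM (348 to 360) with LPS and 267 FPKM (262 to 273) without, a change of 0.40. Rps19, the gene most often mutated in Diamond-Blackfan anaemia, had 158 FPKM (150 to 166) with LPS and 162 FPKM (154 to 171) without, with overlapping intervals. Rps27a, which is made fused to ubiquitin, had 412 FPKM (399 to 424) with LPS and 556 FPKM (541 to 570) without, a change of -0.43.

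Of the 8 paralog copies, 4 were counted, and 3 of those stood lower with LPS under the 4 scalings without reaching the size rule on the deposited scale. Rps27l, a target of p53, was the highest at 342 FPKM (327 to 357) with LPS and 526 FPKM (507 to 545) without, a change of -0.62. Its level was above that of its partner Rps27, which had 26.6 FPKM (22.3 to 30.8) with LPS and 34.5 FPKM (29.5 to 39.5) without. Of the Rps27 rows summed, a non-coding transcript held 26.5 FPKM with LPS and 34.4 FPKM without. The coding transcript held 0.030 and 0.043 FPKM. How fragments were shared between these rows was not tested. Rpl22l1 had 135 FPKM (126 to 145) with LPS and 184 FPKM (173 to 195) without, a change of -0.44. Its partner Rpl22, which represses it in mouse cells, had 349 FPKM (344 to 355) with LPS and 412 FPKM (406 to 418) without, a change of -0.24. Rpl3l, the copy used in muscle, had 2.80 FPKM (2.04 to 3.57) with LPS and 6.16 FPKM (5.00 to 7.32) without, a change of -0.91. That change is opposite in sign to that of Rpl3, and it reached the size rule on the TPM scale (-1.20) and with 0.1 as the pseudocount (-1.11). Rpl7l1, a relative of Rpl7 (542 FPKM with LPS and 609 FPKM without), had 63.9 FPKM with LPS and 59.4 FPKM without, a change of 0.10 that was -0.14 on the TPM scale. Rpl10l and Rpl39l, which are used in testis, and Rps4l were listed at 0 in both libraries. Rpl32l was listed at 0.112 FPKM with LPS and at 0 without.

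Core genes were also split by the pyrimidine start. The 27 genes with such a start had a median change of 0.05, and median levels of 1071 FPKM with LPS and 807 FPKM without. The 30 with a promoter entry and no such start had a median change of -0.02, and median levels of 703 FPKM with LPS and 731 FPKM without. This split follows the annotated start. A gene without such a start can hold a run further on, such as Rps12, with 11 pyrimidines from base 9. Whether an mRNA lacks a TOP motif was not tested. Single genes of the windows printed above spread as widely. Rpl35, with an unbroken run of 18 pyrimidines, had 3257 FPKM with LPS and 3658 FPKM without, while Rpl15, with a run of 17, had 18.6 and 28.6 FPKM, and Rps15, with none, had 4769 and 3910 FPKM.

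Genes that make or use ribosomes were described on the same scale, on which 3591 of the 10032 counted genes were above 0 and 6441 below, 8.54% were called higher and 12.4% lower. All 7 translation elongation factors stood higher with LPS on the deposited scale (6 on the TPM scale and 5 after quantile normalisation), with a median change of 0.50, and 0 passed the size rule. Eef1a1, which brings aminoacyl-tRNA to the ribosome, had 6579 FPKM with LPS and 3962 FPKM without (0.73), and Eef2, which moves the ribosome along the mRNA, had 476 and 277 FPKM (0.78). Of 29 initiation factors, 17 were above 0 and 12 below with a median of 0.34 (0.098 on the TPM scale, 0.040 after quantile normalisation and 0.58 with the median of all genes set to 0), and 1 rose past the size rule, Eif6, which keeps the large subunit from joining too early, with 236 FPKM with LPS and 72.1 FPKM without (1.69). The 19 genes outside the members known for a TOP start had a median of 0.12, with 13 above 0 (8 on the TPM scale) and 0 past the size rule. They include genes already described, such as Eef1a1, Eef2 and Rack1, so they are not a separate group. Of 64 nucleolar biogenesis factors, 41 were below 0 with a median of -0.28 (33 below 0 with the median of all genes set to 0), close to the median of -0.24 over all counted genes, and 4 fell past the size rule. They were Mphosph10, a component of the particle that processes 18S RNA, with 9.22 FPKM with LPS and 28.4 FPKM without (-1.52), Dkc1, the pseudouridine synthase (-1.27), Gnl3 (-1.15) and Rrp1b (-1.13). With the median of all genes set to 0, Gnl3 (-0.92) and Rrp1b (-0.89) were no longer called, which left 2. On the TPM scale 53 of the 64 factors were below 0 and 7 were called lower, against 5 called lower after quantile normalisation. The 14 RNA polymerase I genes had a median of -0.16, 10 of them below 0 (4 with the median of all genes set to 0) and 0 called. All 14 were below 0 on the TPM scale, where their median was -0.40 and 1 was called lower. Of 78 mitochondrial ribosomal protein genes, 53 were below 0 with a median of -0.20, above the median of -0.24 over all counted genes, and 4 fell past the size rule, Mrpl41 (-1.43), Mrps35 (-1.34), Mrpl18 (-1.22) and Mrpl47 (-1.05). Of these, Mrpl18 (-0.98) and Mrpl47 (-0.81) were no longer called with the median of all genes set to 0. Among 18 genes listed with mTOR and the S6 kinases, 5 were above 0 and 13 below (8 below with the median of all genes set to 0), with a median of -0.10. The list is not limited to kinases and holds Larp4. Rps6ka2 and Rps6ka4 rose past the size rule (1.70 and 1.09), and Larp4 fell past it (-1.18). With a pseudocount of 5 these changes were 0.79, 0.84 and -0.80, short of the rule. Larp4 was also short of it with the median of all genes set to 0 (-0.94) and after quantile normalisation (-0.997), but not on the TPM scale (-1.46). Rps6ka4 was short of it on the TPM scale (0.89). Larp1, which binds TOP mRNAs, had 31.9 FPKM with LPS and 19.4 FPKM without (0.69).

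**Figure D4:**
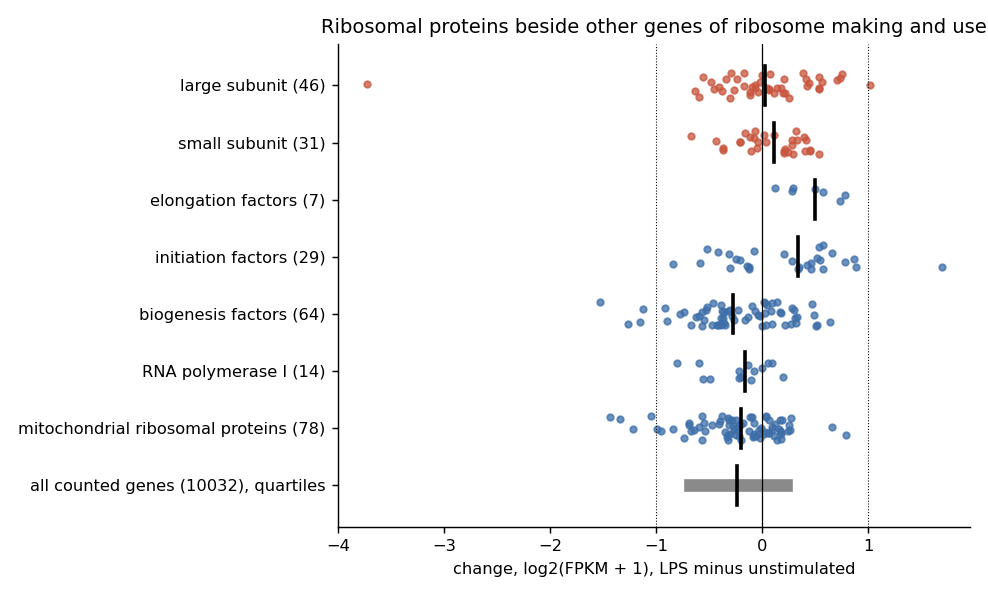
Change in log2(FPKM + 1), LPS minus unstimulated, of each counted gene in the 7 groups shown, with cytosolic ribosomal proteins in red, the other lists in blue, a black bar at each median and a grey band for the quartiles of all 10032 counted genes. Median changes of these groups run from 0.50 for elongation factors to -0.28 for biogenesis factors, and the core large and small subunit genes lie between, at 0.02 and 0.11.

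The genes are spread over the genome. Core members lay on 19 chromosomes, with 14 of them on chromosome 7. Rpl41 and Rps26 lay on chromosome 10, 75360 bases apart, with changes of -0.06 and 0.11. In the libraries as a whole, 17592 of 28246 transcript rows were above 0 with LPS and 17920 without. Of 12 microglia and macrophage markers, 11 were counted, 4 of them with a change above 0 and 7 below. Spi1 had 707 FPKM with LPS and 217 FPKM without (1.70, the one marker called), Lyz2 had 2749 and 4280 FPKM (-0.64), and Cx3cr1, not counted, had 0.061 and 0.142 FPKM. There were 0 counted genes in the marker lists for lymphocytes, endothelium with fibroblasts, oligodendrocytes, neurons and astrocytes. In bulk RNA, fewer cells of a type and less RNA per cell cannot be told apart.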

How the data were processed

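The authors deposited 1 table per library with FPKM and its lower and upper bound, made with Cufflinks on build mm9 per the submitters' processing notes. The sources used here give neither the Cufflinks version nor the aligner, nor how fragments with several matches were handled. Reads were 76 bases, per the labels' protocols. Each table held 28246 rows, and a RefSeq table (GRCm38.p6) gave a symbol for 27560 (97.6%). The 391 rows without status OK in both libraries and 725 rows of small RNAs were left out, and rows of 1 symbol were summed, with half-widths combined in quadrature. Deposited starts were read as 0-based and are printed 1-based.

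Changes are differences of log2(FPKM + 1), computed here, with a filter at 1 FPKM in either library and a size rule of 2-fold, since 1 library a group allows no test. No ratio is given where fewer than 3 fragments are implied. Depth was read from the deposited bounds, taken as 95% intervals, which implied a median of 9130 fragments per counted member in the LPS library and 7233 in the unstimulated library, and these intervals cover counting and assignment within a library. Genes named are the members past the size rule, the 6 highest and 6 lowest of each subunit, the largest changes, the stalk, the paralogs with partners, members with known further roles, and from other lists those past the size rule or highest. A few, such as Rpl19, Rpl12 and Rpl15, were added after their values were seen, for their place in a group described. Members and lists were chosen with earlier results of these data known, so no list is independent support for its direction. Alternatives were another pseudocount, filter, scaling (to TPM, to a median change of 0, by quantiles), row choice, row status, size rule and member set. Python 3.11.15, pandas 2.3.3 and numpy 2.4.6 were used, and the calls were tested on simulated data. A few genes that these rules select are not reported here.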

Additional observations from a re-analysis of the deposited data

How the results depend on the processing

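No paired analysis was possible because each group has 1 library. Of 128 summary values recomputed under alternatives, 92 moved by less than the tolerance and 36 by more. The tolerance was 0.064 log2 units for a median, 4.36% of the value for a share or ratio, and 1.5 times for a count. Counts of members called, 1 higher and 1 lower, became 0 higher on the TPM scale and after quantile normalisation, 2 lower on the TPM scale and with a pseudocount of 0.1, and 4 higher and 6 lower at 1.5-fold. They became 0 and 0 over core members with 4 or fewer named pseudogenes, and 0 lower over core members at 100 FPKM or more, since fewer genes are then included. The median change of the large and the small subunit was 0.24 and 0.31 with the median of all counted genes set to 0, -0.25 and -0.17 on the TPM scale, and -0.16 and -0.054 after quantile normalisation. Those scalings shift the median of all genes by 0.24, -0.24 and 0.11, and relative to it the members' median was 0.28, 0.27 and 0.00, against 0.28 as reported. Calls over all genes were 40.7% higher and 59.3% lower, against 24.8% and 75.2% on the TPM scale, 61.3% and 38.7% with the median set to 0, 53.0% and 47.0% after quantile normalisation, 61.9% and 38.1% with a pseudocount of 5 and 32.3% and 67.7% with 0.1. Over core members with 4 or fewer named pseudogenes, an alternative chosen after seeing the data, the large subunit's median was 0.076, its difference from the small subunit 0.047, and the share of summed FPKM 17.1% with LPS and 19.0% without. The share was 19.4% and 21.4% with the ribosomal protein genes outside the symbol rule added, and 15.4% and 17.6% without Rplp1, also chosen after seeing the data. The ratio of medians, large over small, LPS then unstimulated, was 0.437 and 0.528 over core genes, 0.540 and 0.406 at 100 FPKM or more in both libraries, 0.487 and 0.431 with 4 or fewer named pseudogenes, 0.327 and 0.354 with no filter, and 0.422 and 0.504 with rows of any status. It was 0.439 without LPS at a filter of 5 FPKM, 0.344 with LPS with those genes added, and 0.360 with LPS without Rplp1. Over the single genes followed, 16 values lost a call, 2 gained one and 0 called genes turned in sign. The change of Rpl26 ran from -6.92 with a pseudocount of 0.1 to -1.79 with 5, and that of Rpl34 was -0.10 with rows of any status, against 0.74. The cause was not tested.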
